A study of Sus scrofa with 27 samples.

Results

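AMP-activated protein kinase (AMPK) subunits and sirtuins were followed as energy-sensing genes in mural granulosa cells (GCs) of full-fed (FF) and feed-restricted (RES) sows. The 10 genes were chosen by symbol: PRKAA1, PRKAA2, PRKAB1, PRKAB2, PRKAG1 and PRKAG2 of AMPK, the kinase STK11, and the sirtuins SIRT1, SIRT3 and SIRT5. Each symbol matched 1 of the 35670 pig Ensembl identifiers counted, and all 10 were among the 11385 named genes that were tested. Mural GCs line the inside of the follicle wall, and those of the largest healthy follicle of 1 ovary were cut out by laser capture microdissection, so that 1 library stands for 1 sow. The 27 sows were wild-type Large White × Norwegian Landrace crosses, 13 given 6.5 kg of feed per day (FF) and 14 given 3.25 kg per day (RES) over the last 2 weeks of lactation, and ovaries were taken on day 2 after weaning. Between weaning and sampling both groups received the same ration, which the labels call full feeding and the study's methods give as a lower amount than the FF ration. From each larger feeding group the study kept a subset, the RES sows that had lost the most body weight and the FF sows that had lost the least. FF sow 9 is not among the libraries.

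AMPK is a heterotrimer of a catalytic α subunit (PRKAA1 or PRKAA2), a scaffold β subunit (PRKAB1 or PRKAB2) and a nucleotide-binding γ subunit (PRKAG1, PRKAG2 or PRKAG3). It is switched on when AMP and ADP rise against ATP, through phosphorylation of a threonine in the α activation loop by STK11, also called LKB1, and it then slows lipid, protein and sterol synthesis and favours fuel breakdown. Sirtuins are NAD-dependent enzymes that remove acyl groups from proteins: SIRT1 is mainly nuclear, SIRT3 is the main mitochondrial deacetylase, and SIRT5 removes succinyl, malonyl and glutaryl groups in mitochondria. Both systems respond to activity and metabolites, so an RNA count measures how much transcript was there and not how active the enzyme was.

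Over the whole alignment of the coding sequences, with gaps counted as differences, PRKAA1 and PRKAA2 were 68.8% identical and the β pair 69.7%. For PRKAG1 and PRKAG2 it was 41.3%, or 703 of 1704 positions. The coding length is 993 bases for PRKAG1 and 1704 for PRKAG2, so that figure holds gaps and cannot be set against the other pairs. The 28 codons of the α activation segment are shown because they hold the threonine that STK11 phosphorylates, its codon in capitals. They lie in exons on the minus strand of Sscrofa11.1 and were read from the RefSeq annotation of that build, at chr16:25757693-25757769 and chr16:25759485-25759491 for PRKAA1 and at chr6:155712052-155712128 and chr6:155714137-155714143 for PRKAA2.
PRKAA1: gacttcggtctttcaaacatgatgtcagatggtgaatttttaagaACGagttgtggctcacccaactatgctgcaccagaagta
PRKAA2: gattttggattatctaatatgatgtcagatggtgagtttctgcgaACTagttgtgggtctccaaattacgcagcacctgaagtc
The stretches share 64 of 84 bases and encode the same residue at 28 of 28 codons, so the differences between them are all synonymous.

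For the sirtuins the stretch that ends just past the catalytic histidine is shown, with the histidine codon in capitals, since it is the part of the enzyme core that all share. It was read from RefSeq on Sscrofa11.1 at chr14:71111907-71111967 and chr14:71112954-71112955 (plus strand) for SIRT1, at chr2:47511-47551 and chr2:48908-48935 (minus strand) for SIRT3, and at chr7:9956736-9956796 and chr7:9959450-9959451 (plus strand) for SIRT5.
SIRT1: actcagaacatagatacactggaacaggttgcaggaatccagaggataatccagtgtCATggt
SIRT3: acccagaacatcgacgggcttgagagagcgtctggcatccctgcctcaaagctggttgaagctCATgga
SIRT5: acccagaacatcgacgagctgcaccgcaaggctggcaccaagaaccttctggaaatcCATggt
The mitochondrial pair was the most alike here, with 43 of 69 aligned positions, gaps included, identical in SIRT3 and SIRT5. It was 35 of 69 for SIRT1 and SIRT3 and 35 of 63 for SIRT1 and SIRT5.

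FF libraries held 12299220 to 16021200 counts, with a median of 13490513, and RES libraries 12942198 to 18120922, with a median of 15232600. Levels are given as counts-per-million (CPM) values, scaled to library size by TMM, and differences as log2 fold changes of RES against FF from edgeR's quasi-likelihood test, with the Benjamini-Hochberg adjusted p over all tested genes. A gene was called when that p was under 0.05. Of the 11385 genes, 14.1% were called, 8.28% higher and 5.85% lower in RES. No run or batch is named, but the percentage of sequenced bases that reached a quality of 20 divided the libraries at 98% into an upper group of 7 FF and 7 RES and a lower group of 6 FF and 7 RES, and values within these groups are given beside pooled ones. FF sow 10, counted in the lower group, has an uncertain place, because the sample records and the study's quality tables differ on which FF sow had the low RNA integrity, so values that turn on it are given with and without it where it moves them. No fit or test placed it in the upper group, so upper-group values hold only for its present place. Summed GC markers, with VCAN as the highest, were at 9636 to 15603 CPM in FF and 9975 to 17547 CPM in RES. Theca and stroma markers were at 2048 to 5468 CPM in FF, with a median of 3708, and at 1431 to 5736 CPM in RES, with a median of 2781, and 1 of 13 was called lower in RES. Smooth muscle and pericyte markers were at 339 to 976 CPM in FF (median 529) and 223 to 966 CPM in RES (median 360). Of these, 2 of 6 were called lower, and of the theca list 1 of 13, against 5.85% of all genes. RNA of other follicle cells was thus present in either group, with lower median sums in RES and overlapping ranges. In the lower quality group, where 1 gene in all was called, none of these markers was. There 3 of 6 smooth muscle and 2 of 13 theca markers lay above 0. In such bulk samples fewer cells of a type and less RNA per cell cannot be told apart.

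None of the 10 genes was called between RES and FF by edgeR, and none had an unadjusted p under 0.05. DESeq2's Wald test also called none, where it called 17.0% of all genes, as did limma's voom with sample quality weights, which called 28.0% of all genes and gave 3 members an unadjusted p under 0.05. The 10 log2 fold changes ran from -0.19 to 0.14 with a median of -0.09, and 8 lay below 0, where the median over all tested genes was -0.02 and 47.3% lay above 0. Without regard to sign their median was 0.12, against 0.18 over all tested genes. Each gene's 95% confidence interval held no change, and taken over the 10 genes the intervals ran from a RES to FF ratio of 0.714 to one of 1.27, so that a 2-fold change of any of them was outside the interval. In every gene the ranges of the FF and RES sows overlapped.

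**Figure D1:**
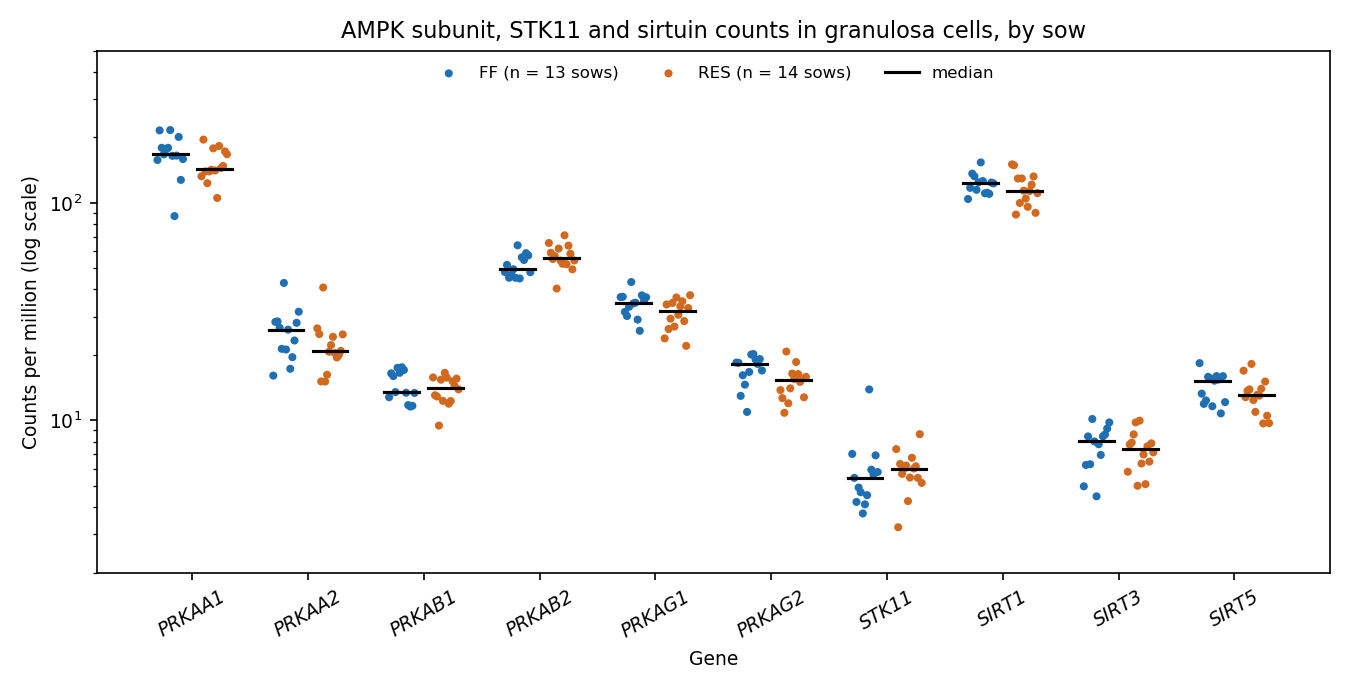
Library-size-scaled counts, in CPM (log axis), of the 10 genes, 1 point per sow for 13 FF and 14 RES sows, with the group median as a bar. The clouds of FF and RES sows overlap for each gene, and 1 FF sow stands apart at 13.9 CPM for STK11 and at 86.9 CPM for PRKAA1.

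PRKAA1, the α1 catalytic subunit and the member with the most counts, was at 86.9 to 216 CPM in FF GCs (median 167) and at 105 to 195 CPM in RES GCs (median 143). The lowest value was that of FF sow 10, no RES sow lay outside the FF range, and 9 of 14 RES sows lay below the FF median. Its log2 fold change was -0.16 (SE 0.11, edgeR adjusted p = 0.315), which is a RES to FF ratio of 0.893 with a 95% interval of 0.768 to 1.04. Within the upper quality group PRKAA1 was at 159 to 216 CPM in 7 FF sows (median 179) and at 105 to 183 CPM in 7 RES sows (median 142). There 6 of 7 RES sows lay below the lowest FF sow. FF sow 10, at 86.9 CPM and counted in the lower group, lay below all 7 of them, so this count rests on its placement. The call that follows was not tested with that sow in the upper group. The difference in that group was -0.39 on the log2 scale (SE 0.11, edgeR adjusted p = 0.029), the single member call in any setting, where 17.8% of all genes were called. In the lower group it was 0.09 (SE 0.16, edgeR adjusted p = 0.883), or -0.04 (SE 0.13) without FF sow 10. With all sows but that one the PRKAA1 difference was -0.22 (SE 0.09, edgeR adjusted p = 0.0815). The test of the difference between the quality groups gave an adjusted p of 0.358 by edgeR.

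PRKAA2, the α2 subunit, had far fewer counts, at 16.1 to 42.9 CPM in FF (median 26.1) and 15.1 to 40.8 CPM in RES (median 20.8). FF sow 6 and RES sow 4 held the highest values, and 12 of 14 RES sows lay below the FF median while the ranges nearly coincided. The log2 fold change of PRKAA2 was -0.19 (SE 0.14, edgeR adjusted p = 0.376), the furthest from 0 of the 10 members but with a wide interval of 0.714 to 1.07 for the ratio. It was negative in both quality groups, at -0.24 (SE 0.20) in the upper and -0.11 (SE 0.17) in the lower. PRKAA2 exons overlap those of C6H1orf168 on the opposite strand over 15.5% of their length. The counting command set no strand option, so read pairs there could not be assigned by strand. The listed command also sets no option to count a pair on more than 1 gene. How far such pairs entered or were lost from either count was not tested.

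Among the β scaffolds, which hold the complex together and can bind glycogen, PRKAB2 had more counts than PRKAB1. PRKAB1 was at 11.6 to 17.6 CPM in FF (median 13.5) and 9.47 to 16.5 CPM in RES (median 14.2), with a log2 fold change of -0.07 (SE 0.09, edgeR adjusted p = 0.664). In the upper quality group its 7 RES sows all lay below the FF median of 16.0 CPM, with an estimate of -0.20 (SE 0.13, edgeR adjusted p = 0.292), against 0.07 (SE 0.14) in the lower group. PRKAB2 was at 44.9 to 63.8 CPM in FF (median 49.5) and 40.4 to 70.9 CPM in RES (median 56.1). It was the one subunit with a positive estimate, 0.14 (SE 0.08, edgeR adjusted p = 0.218), and 12 of 14 RES sows lay above the FF median. Within the upper quality group all 7 RES sows, at 52.3 to 70.9 CPM, lay above the FF median of 48.0 CPM, with a log2 fold change of 0.27 (SE 0.10, edgeR adjusted p = 0.063). In the lower group the PRKAB2 estimate was -0.01 (SE 0.12), and the difference between quality groups had an edgeR adjusted p of 0.425.

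The γ subunits carry the sites where AMP, ADP and ATP compete. PRKAG1 was at 25.8 to 43.3 CPM in FF (median 34.8) and 22.0 to 37.6 CPM in RES (median 31.7), and 11 of 14 RES sows lay below the FF median. Its log2 fold change was -0.15 (SE 0.09, edgeR adjusted p = 0.232), with -0.26 (SE 0.13) in the upper group, where 6 of 7 RES sows lay below the FF median, and -0.05 (SE 0.11) in the lower group. PRKAG2 was at 10.9 to 20.2 CPM in FF (median 18.2) and 10.8 to 20.7 CPM in RES (median 15.3), with 12 of 14 RES sows below the FF median and a log2 fold change of -0.19 (SE 0.10, edgeR adjusted p = 0.210), the lowest adjusted p of the 10. In the lower quality group the 7 RES sows of PRKAG2, at 10.8 to 16.4 CPM, all lay below the median of 18.8 CPM of 6 FF sows. There the estimate was -0.43 (SE 0.14, edgeR adjusted p = 0.223), or -0.41 (SE 0.14) without FF sow 10, against 0.04 (SE 0.14) in the upper group, and the test of the difference between them gave an edgeR adjusted p of 0.352. PRKAG3, the γ subunit known from skeletal muscle, was at 0.913 to 10.2 CPM in FF and 1.86 to 5.12 CPM in RES, the highest again in FF sow 10, and was not called (log2 fold change -0.30, SE 0.27, edgeR adjusted p = 0.474, or -0.08, SE 0.24, without FF sow 10).

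STK11, the kinase that phosphorylates the α threonine, had the fewest counts of the 10, with 28 to 86 counts per FF library and 25 to 75 per RES library. Scaled, it was at 3.74 to 13.9 CPM in FF (median 5.45 CPM) and at 3.23 to 8.65 CPM in RES (median 6.01 CPM). FF sow 10 alone reached 13.9 CPM, and the other FF sows lay within the RES range. The log2 fold change was 0.01 (SE 0.16, edgeR adjusted p = 0.986), with a ratio interval of 0.795 to 1.27, and 0.17 (SE 0.13, edgeR adjusted p = 0.372) without FF sow 10. Within the upper quality group all 7 RES sows (5.45 to 7.39 CPM) lay above the FF median of 4.92 CPM, and 5 of 7 lay above the highest FF sow. FF sow 10, counted in the lower group, lay above all 7, so the count of 5 rests on its placement. The estimate for STK11 there was 0.35 (SE 0.14, edgeR adjusted p = 0.093), against -0.34 (SE 0.28, edgeR adjusted p = 0.676) in the lower group. That lower-group estimate turned on FF sow 10, being -0.05 (SE 0.23) without it. With all sows the difference between the quality groups had an edgeR adjusted p of 0.380. Its exons overlap those of CBARP on the other strand over 9.25% of their length.

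SIRT1, which deacetylates histones and transcription factors such as FOXO proteins, was second only to PRKAA1 in counts, at 104 to 153 CPM in FF (median 123) and 88.4 to 150 CPM in RES (median 114). Its log2 fold change was -0.07 (SE 0.08, edgeR adjusted p = 0.603), and the ratio interval of 0.848 to 1.07 was among the narrowest. SIRT3 was at 4.48 to 10.2 CPM in FF (median 8.01) and 5.01 to 9.98 CPM in RES (median 7.37), with a log2 fold change of -0.06 (SE 0.13, edgeR adjusted p = 0.788). For SIRT5 the values were 10.8 to 18.3 CPM in FF (median 15.2) and 9.69 to 18.2 CPM in RES (median 13.1), with 12 of 14 RES sows below the FF median and a log2 fold change of -0.11 (SE 0.10, edgeR adjusted p = 0.501). The pooled estimates of all 3 sirtuins lay below 0 and none passed the test. Within the upper and lower quality group they were -0.04 and -0.09 for SIRT1, -0.17 and 0.03 for SIRT3, and 0.04 and -0.27 for SIRT5, with 6 of 7 upper RES sows above the FF median for SIRT5. Without FF sow 10 the lower-group value of SIRT3 was -0.01. SIRT2, SIRT4, SIRT6 and SIRT7 had median levels of 1.65 to 6.57 CPM over the diets and were not called, with edgeR adjusted p values of 0.214 to 0.930.

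**Figure D2:**
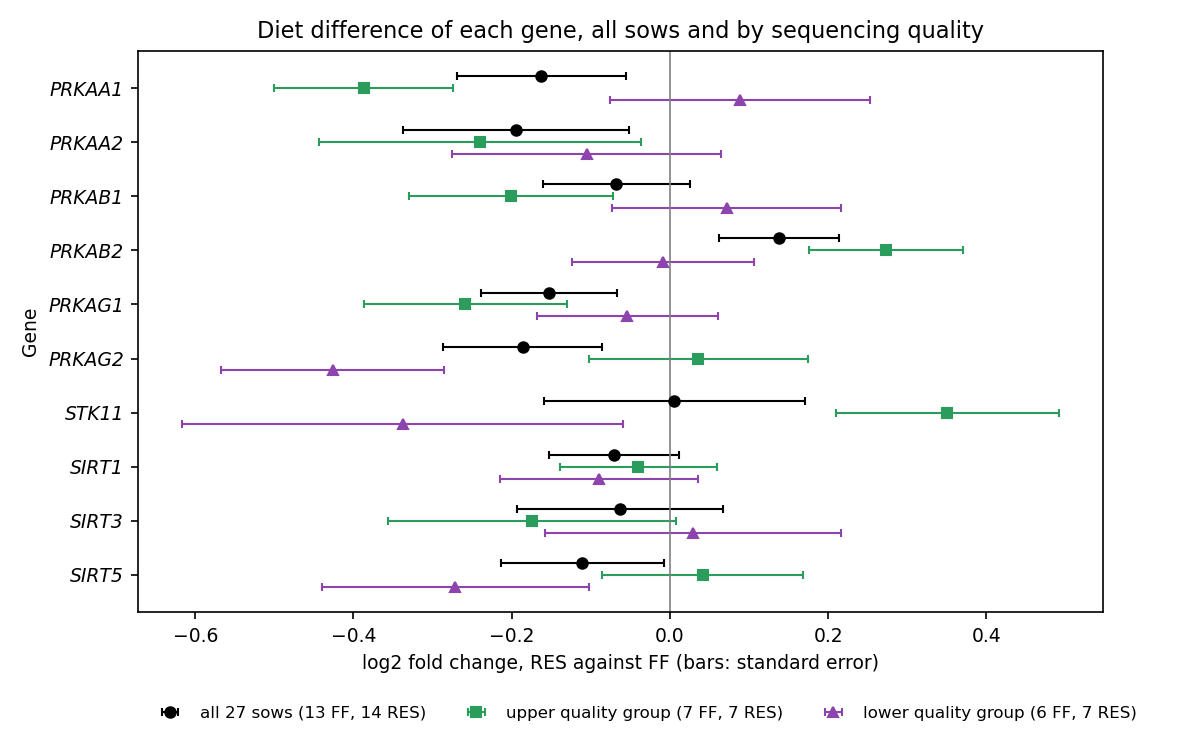
Log2 fold change of RES against FF for each gene with its standard error, in all 27 sows (black circles), in the upper quality group (green squares) and in the lower quality group (purple triangles). Pooled estimates lie between -0.19 and 0.14, while 7 of the 10 genes, all but PRKAA2, PRKAG1 and SIRT1, lie on different sides of 0 in the quality groups. The purple triangles include FF sow 10, without which 4 genes lie on different sides of 0 (PRKAB1, PRKAG2, STK11 and SIRT5).

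To compare the genes with each other, CPM were divided by exon length in kb, from the merged RefSeq exons. PRKAA1 led with a median of 40.2 CPM per kb over 27 sows (lowest 21.3, highest 52.8). It was followed by PRKAG1 at 15.8, SIRT1 at 14.7 and SIRT5 at 14.1 CPM per kb. The neighbours PRKAG1 and SIRT1 could not be told apart beyond their spread (mean log2 ratio 0.04 ± 0.33 SD, two-sided permutation test of signs, p = 0.563), nor did SIRT1 and SIRT5 (0.05 ± 0.33 SD, p = 0.459). Then came PRKAB2 at 9.82 and PRKAB1 at 3.95 CPM per kb. SIRT3 at 2.53 and PRKAA2 at 2.42 CPM per kb could not be ordered (p = 0.400), since PRKAA2 was higher in 18 of 27 sows while its median was lower. PRKAG2 at 1.68 and STK11 at 0.991 CPM per kb were last. The remaining steps of this order held in 25 to 27 of 27 sows.

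The order depended on the length used. SIRT5 has a RefSeq model of 941 bp that is almost all coding, so its level per kb is not on the same footing as that of genes with long untranslated ends. By coding length PRKAB2 took second place, SIRT1 stood above PRKAG1 in 27 of 27 sows and SIRT5 fell behind PRKAB1. By the longest transcript PRKAG2 stood above PRKAA2. PRKAA1 was first and STK11 last under each of the 3 lengths.

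**Figure D3:**
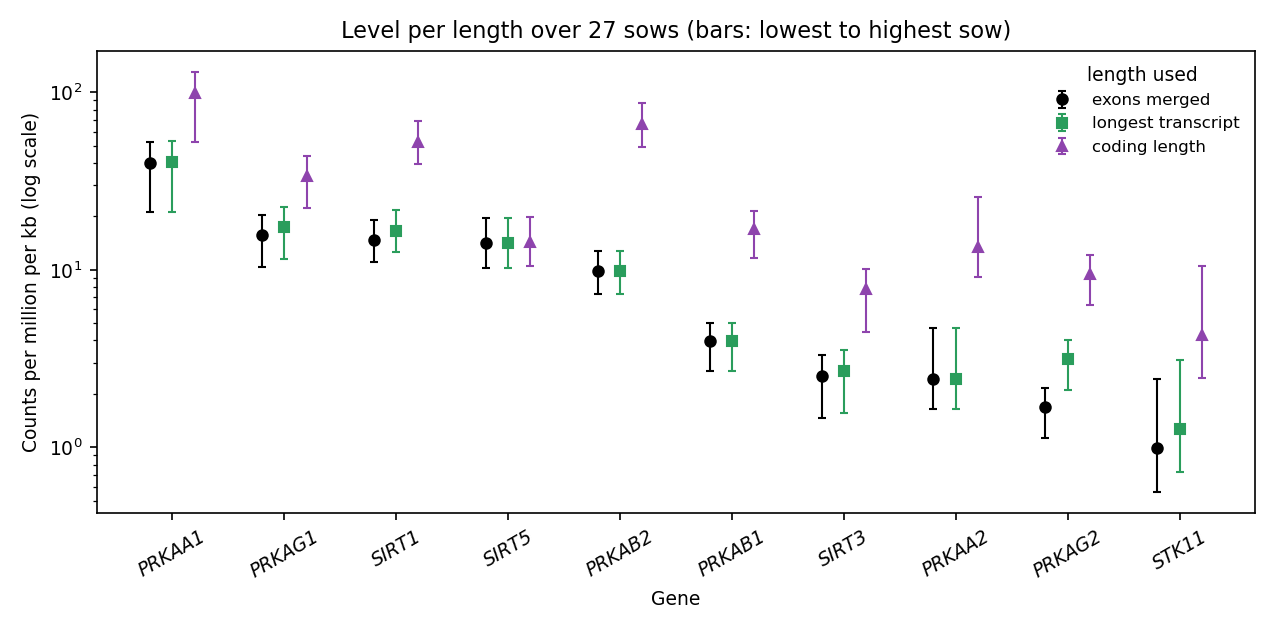
CPM per kb (log axis) of the 10 genes over 27 sows, as the median with the lowest and highest sow, for 3 definitions of length. PRKAA1 is at the top and STK11 at the bottom with each, while PRKAB2 and SIRT5 change places when the coding length is used.

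Within each subunit family 1 isoform led in every sow. Per kb of exon, PRKAA2 made up 6.46% ± 1.80 (SD, n = 13) of the α transcripts in FF and 6.34% ± 2.34 (SD, n = 14) in RES, and PRKAA1 the rest. PRKAB2 made up 69.2% ± 4.73 (SD, n = 13) of the β transcripts in FF and 72.0% ± 4.64 (SD, n = 14) in RES. PRKAG2 made up 10.1% ± 2.18 (SD, n = 13) of PRKAG1 and PRKAG2 together in FF and 9.85% ± 2.00 (SD, n = 14) in RES. PRKAA1, PRKAB2 and PRKAG1 were thus ahead of their partner in 27 of 27 sows, and they were so under each length and without any length. The size of a share did depend on it: with raw counts the PRKAG2 share in FF was 33.3%, and the PRKAA2 share 13.3%.

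None of the 3 shares passed the test of diet over all sows. The difference, RES minus FF, was -0.12 percentage points for PRKAA2 (two-sided permutation test, p = 0.888), 2.84 points for PRKAB2 (p = 0.128, adjusted over the 3 families 0.384) and -0.22 points for PRKAG2 (p = 0.791). Within the quality groups 1 share passed in each. In the upper group the PRKAB2 share was 63.5 to 74.7% in 7 FF sows and 72.0 to 79.3% in 7 RES sows, a difference of 6.79 points (two-sided exact permutation test, p = 0.00291, adjusted 0.00873), and all 7 RES sows lay above the FF median of 68.7%. In the lower group it was -1.29 points (exact permutation test, p = 0.638). The PRKAG2 share in the lower group was 8.84 to 13.3% in 6 FF sows and 7.11 to 10.1% in 7 RES sows, a difference of -2.26 points (exact permutation test, p = 0.00758, adjusted 0.0227), and 5 of 7 RES sows lay below the lowest FF sow. Without FF sow 10 it was -1.72 points (exact permutation test, p = 0.0164, adjusted 0.0492). In the upper group it was 1.75 points (exact permutation test, p = 0.153). The test of the difference between the quality groups is given with the other results for a closer look.

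**Figure D4:**
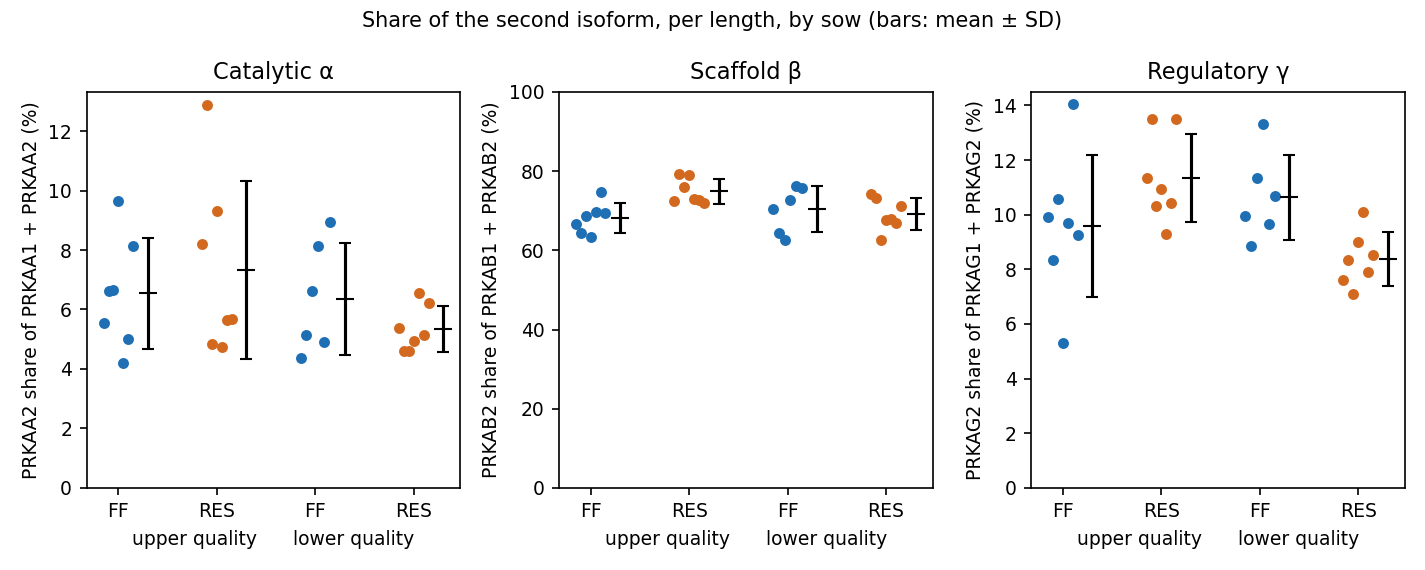
Share of PRKAA2, PRKAB2 and PRKAG2 in their subunit pair (percent, per kb of exon), 1 point per sow by diet and quality group, with mean ± SD. In the upper quality group the PRKAB2 share is higher in RES (75.0% against 68.2%), and in the lower group the PRKAG2 share is lower in RES (8.37% against 10.6%).

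The spread between animals was below that of the median gene for most of the 10. edgeR's biological coefficient of variation (BCV), the spread between sows of 1 diet beyond counting noise, was below the median of 0.239 over all tested genes for 8 of the 10. PRKAB2 had the lowest, 0.144, lower than in all but 7.26% of genes, followed by PRKAG1 at 0.157, PRKAB1 and SIRT1 at 0.158, PRKAG2 at 0.173, SIRT5 at 0.177, PRKAA1 at 0.200 and SIRT3 at 0.213. PRKAA2 (0.256) and STK11 (0.271) lay above the median. Relative to the trend of BCV with abundance, where the median over all genes was 0.815, STK11 was at 0.811, while PRKAA1 (0.860) and PRKAA2 (1.02) lay above. Without FF sow 10 the BCV was 0.189 for STK11 and 0.166 for PRKAA1, both below the median of 0.225 then, and relative to the trend they were at 0.585 and 0.749, below the median of 0.798. From the lowest to the highest of 27 sows the level ranged over 1.74-fold for SIRT1 and 1.76-fold for PRKAB2, but over 4.30-fold for STK11, or 2.68-fold without FF sow 10, below the 2.84-fold of PRKAA2. STK11 is also the gene where counting sets the most noise, 15.3% of the mean in FF against 2.82% for PRKAA1, beside total coefficients of variation of 44.0% and 20.5%, which were 20.3% and 14.5% without FF sow 10.

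The spread between sows passed the test of diet for none of the genes. The lowest p was that of SIRT1, whose SD of log2 CPM was 0.15 in FF and 0.25 in RES (two-sided permutation test of deviations from the median, p = 0.0833, adjusted over 10 genes 0.833). For STK11 the SD was 0.47 in FF and 0.32 in RES (p = 0.398), but without FF sow 10 the FF value was 0.28, below that of RES (p = 0.814). Over all tested genes the median SD was 0.36 in FF and 0.35 in RES.

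Proliferation and respiration genes were used as a frame. The study had reported both as higher in RES in these same libraries, so the score differences between diets are a description and no independent support. A cell cycle score, the mean log2 level of 29 genes, was 1.13 higher in RES than in FF (two-sided permutation test, p = 1e-04). Of the 29 genes, 27 were called higher, against 8.28% of all genes. An oxidative phosphorylation (OXPHOS) score of 23 genes was 0.20 higher (two-sided permutation test, p = 0.0277). Of these 23, only 1 was called higher, against 8.28% of all genes. Each of the 10 genes was then related to both scores over the 27 sows with the diet means taken out, 20 relations in all. PRKAG1 fell with the cell cycle score, with Pearson's r = -0.67 (permutation p = 4e-05, adjusted 0.0008) and Spearman's rho = -0.72 (permutation p = 1e-05, the smallest these permutations can give).

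The PRKAG1 relation was seen in FF (r = -0.67, 13 sows) and RES (r = -0.73, 14 sows), and in the upper (r = -0.70, permutation p = 0.00449) and lower quality group (r = -0.57, permutation p = 0.0544), though adjusted over the 20 relations it passed in neither quality group and not within FF (adjusted p = 0.0898, 0.346 and 0.214). Without FF sow 2 and RES sow 7, the farthest from the median of the diet-centred score, it was r = -0.68 (adjusted p = 0.001), without FF sows 2 and 6, the farthest before centring, r = -0.66 (adjusted p = 0.0038), and without FF sow 10 also r = -0.66. PRKAG1 also rose with the summed endothelial markers, which were at 140 to 286 CPM in FF and 93.4 to 286 CPM in RES, by r = 0.63 and rho = 0.61 (permutation p = 0.00066, adjusted over 30 relations 0.0198), and 3 of 7 of those markers were called lower in RES, where 5.85% of all genes were. The part of that in the PRKAG1 relation was not tested.

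PRKAA1 tended the same way, but it missed the threshold by Pearson's r and passed it by rank. Its r with the cell cycle score was -0.52 (permutation p = 0.00875, adjusted 0.0807), its rho was -0.54 (adjusted p = 0.0299), without the 2 sows farthest on the diet-centred score r was -0.43 (adjusted p = 0.318), without the 2 farthest before centring -0.46 (adjusted p = 0.195), and without FF sow 10 it was -0.52 (adjusted over 10 relations, p = 0.0318). PRKAG2 had r = -0.50 with the OXPHOS score (permutation p = 0.0121, adjusted 0.0807). Without FF sow 10 and RES sow 3, the farthest on the diet-centred OXPHOS score, r was -0.37 (permutation p = 0.0753, adjusted 0.318). For SIRT3 and SIRT5, which act on mitochondrial enzymes, r with the OXPHOS score was -0.17 and -0.06 (permutation p = 0.412 and 0.765). Without FF sow 10 and RES sow 3 it was -0.36 for SIRT3 (permutation p = 0.0794, adjusted 0.318) and 0.02 for SIRT5 (permutation p = 0.928). For SIRT1 r with the cell cycle score was 0.07 (permutation p = 0.727).

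**Figure D5:**
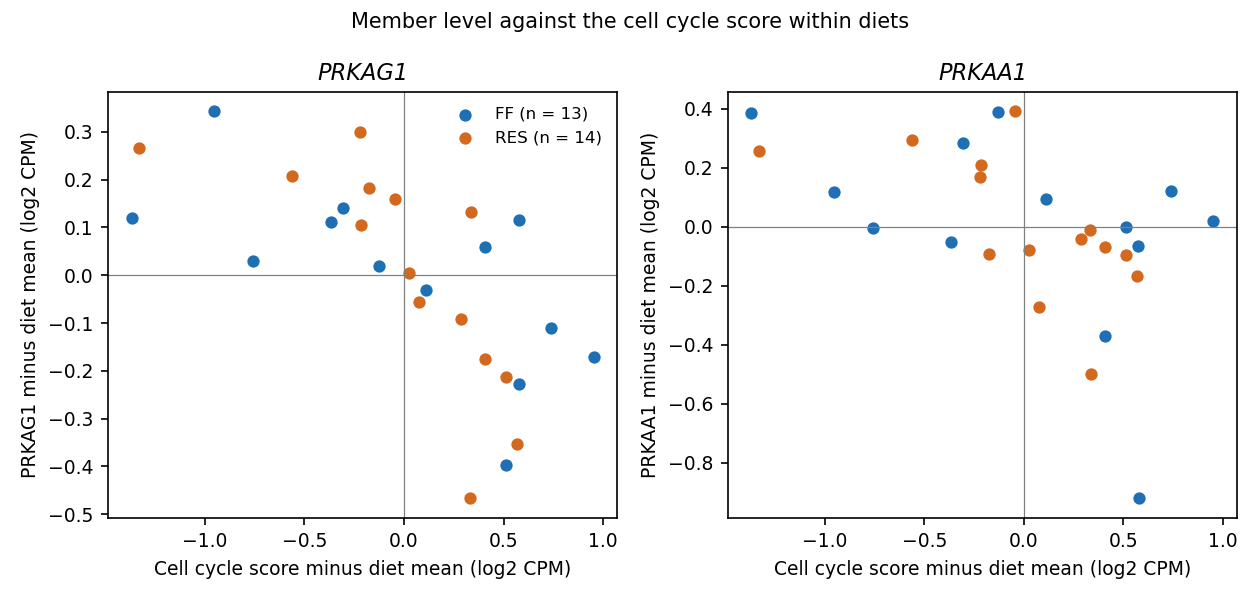
PRKAG1 (left) and PRKAA1 (right) against the cell cycle score, both in log2 CPM minus the mean of the diet, for 13 FF and 14 RES sows. PRKAG1 falls as the score rises in either diet (r = -0.67 in FF, -0.73 in RES), while the PRKAA1 relation is looser and holds 1 FF sow far below the others.

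Of the 45 pairs of members, 1 passed an adjusted p of 0.05: PRKAA1 fell as STK11 rose, with r = -0.72 (permutation p = 0.00041, adjusted 0.0185) and rho = -0.62. This rested in good part on FF sow 10, which had the lowest PRKAA1 and the highest STK11 level of all 27 sows. Without it r was -0.50 (permutation p = 0.0119, adjusted 0.315). The highest r of any pair was 0.41, and the median over the 45 pairs was -0.08. For PRKAA1 and PRKAG1, the leading α and γ isoforms, r was 0.37 (permutation p = 0.054).

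The genes most alike to a member over the 27 sows, by Pearson's r of log2 CPM with diet means taken out, were as follows, as a description. PRKAA1 was closest to RAB11A, a GTPase of recycling endosomes (r = 0.93), SFT2D1 (0.90) and CFL2, which severs actin filaments (0.90). PRKAA2 was closest to RABEP1 (0.85), FYB2 (0.84) and RICTOR, a core part of mTORC2 (0.82). FYB2 is another name of C1orf168, listed as C6H1orf168 in RefSeq and described above as overlapping PRKAA2 on the opposite strand, so its likeness to PRKAA2 is uncertain. PRKAG1 was closest to SLA-DMA, an antigen loading protein (0.80), NFIB (0.79) and RORA (0.79), the latter both transcription factors. Among those most alike to STK11 were C1orf35 (0.86) and SRRT (0.85), which fell to 0.72 and 0.70 without FF sow 10, while for RAB11A, SFT2D1 and CFL2 with PRKAA1 r was then 0.90, 0.82 and 0.87. SIRT1 was closest to GUF1 (0.81), PRPF39 (0.81) and the kinase TBK1 (0.80). For PRKAB2 the closest was NAA50 (0.79), while the closest for PRKAB1, PRKAG2, SIRT3 and SIRT5 reached only 0.67 to 0.69.

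Around the members, 8 lists of pathway genes were counted, beside 8.28% of all genes called higher and 5.85% lower by edgeR. Of the 10 AMPK upstream kinases and partners, 1 was called lower and none higher. It was FNIP1, a folliculin partner that binds AMPK, at 109 to 210 CPM in FF (median 155) and 88.4 to 174 CPM in RES (median 104), with a log2 fold change of -0.46 (SE 0.10, edgeR adjusted p = 0.00368). The upstream kinases CAMKK1, CAMKK2 and MAP3K7 and the STK11 partners STRADA, STRADB, CAB39 and CAB39L were not called. Of 9 AMPK-related kinases tested and of 21 AMPK substrates, none was called by edgeR. The median log2 fold change of the 21 substrates was -0.01, and without regard to sign 0.15. DESeq2, with 17.0% of all genes called, called 1 and 2 of these, SIK3 lower and PFKFB3 higher and FOXO3 lower. Voom with sample quality weights, with 28.0% called, called 1 of the 9 kinases, and of the 21 substrates 1 higher and 4 lower.

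Among 14 tested genes of the supply and use of NAD, on which sirtuins depend, 2 were called higher and 1 lower, against 8.28% and 5.85% of all genes. DESeq2 called 3 higher and 1 lower, where it called 17.0% of all genes. Voom with sample quality weights called 3 higher and 3 lower, where it called 28.0%. PARP2, an NAD-consuming DNA repair enzyme, was at 45.2 to 103 CPM in FF (median 72.1) and 71.7 to 137 CPM in RES (median 109), with a log2 fold change of 0.56 (SE 0.13, edgeR adjusted p = 0.00404). PARP1, its larger relative, was at a median of 54.8 CPM in FF and 74.0 CPM in RES (0.37, SE 0.11, edgeR adjusted p = 0.0295). In the lower quality group PARP1 was at 0.05 (SE 0.16), or 0.20 without FF sow 10, and leaving out FF sow 2 or 6 or RES sow 1, 6 or 9 raised its edgeR adjusted p to 0.051 to 0.057. BST1, an ectoenzyme that cleaves NAD, was at a median of 19.4 CPM in FF and 12.4 CPM in RES (-0.61, SE 0.21, edgeR adjusted p = 0.0469), and that call was lost in 16 of 27 fits with 1 sow left out. NAMPT, which makes the NAD precursor NMN, was not called.

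The mTORC1 list of 9 genes, the growth complex that AMPK restrains, held 1 call. DEPTOR, an inhibitory partner of mTOR, was at 18.4 to 60.5 CPM in FF (median 33.7) and 7.49 to 43.0 CPM in RES (median 14.7), and was lower in RES by a log2 fold change of -1.02 (SE 0.23, edgeR adjusted p = 0.00353). None of 13 sirtuin substrates and regulators, 7 adenylate kinases and AMP enzymes or 5 other AMPK and sirtuin family genes tested was called by edgeR, where 14.1% of all genes were. DESeq2 called 1 of them, the mitochondrial adenylate kinase AK3, lower in RES by a log2 fold change of -0.31 (adjusted p = 0.0434; edgeR adjusted p = 0.057), and limma's voom with weights called 1 of the 13 sirtuin substrates and 2 of the 7 adenylate kinases and AMP enzymes. FNIP1, PARP2 and DEPTOR kept their call in 27 of 27 fits that left out 1 sow. In the lower quality group alone they were not called, with estimates of -0.33, 0.61 and -0.93, but in that group edgeR called 1 gene in all. The summed endothelial, theca and smooth muscle markers had lower medians in RES, as FNIP1, BST1 and DEPTOR did. The part of other cells in these calls was not tested.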

How the data were processed

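Mural GCs of 27 sows (13 FF, 14 RES) gave 1 RNA-seq library each, with ribosomal RNA removed and unique molecular identifiers (UMIs) added. According to the methods, the labels' processing notes and the file headers, the authors aligned reads to Sscrofa11.1 with HISAT2 2.2.1, kept uniquely mapped reads (SAMtools 1.16.1), removed PCR copies with UMI-tools 1.1.4 and counted read pairs on Ensembl exons with featureCounts 1.6.2. The counting command sets no strand option, although the kit marks strand. What the authors deposited are raw counts of deduplicated read pairs for each identifier. Symbols came from a table pairing 15623 identifiers with names, and lengths, positions and sequences from RefSeq on Sscrofa11.1, whose models differ from those used for counting.

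A mean count of 5 was reached by 17467 identifiers, of which 11422 had a symbol. Leaving out 37 small RNA symbols gave 11385 tested genes. The test was edgeR 4.0.16 (TMM, quasi-likelihood, R 4.3.3), all 27 sows in 1 fit with diet as the term. On simulated 2-fold changes in 200 of 11385 genes it recovered 88.5%. Changes as small as the members' estimates, -0.19 to 0.14 on the log2 scale, were not simulated, so recovery at that size is unknown. Log2 CPM used a prior count of 2. An SE is the log2 fold change over the root of the test's F value. Other p values came from 100000 permutations (20000 for the test of a share against quality) or, within quality groups, all permutations for the shares (scipy 1.17.1 and numpy 2.4.6 under Python 3.11.15, with pandas 2.3.3, and matplotlib 3.10.9 for figures). The p values set a difference, ratio or relation against the variation between these sows, which the study had picked by body weight loss.

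The members, lists and tests were chosen with earlier results of these data known. Named were all 10 members, up to 4 called genes per pathway list by size of change, and, of the 3 genes most alike to each member, those closest. Of these, 1 is not reported here. SIK3, PFKFB3, FOXO3 and AK3, not called by edgeR over all sows, were named after their values were seen. Alternatives were DESeq2 1.42.0, its size factors, upper-quartile factors, other filters, all identifiers, a replicate block, quality group or RNA integrity as covariates, limma 3.58.1 voom with weights, each quality group and each sow left out. Chosen after seeing the data were fits without RES sows 3 and 5, the same-numbered sows without the block, the marker and member pair correlations, the score correlations without the 2 sows farthest on the diet-centred score, the correlations, share tests, lower quality group, quality interaction and BCV without FF sow 10, voom for the pathway lists, and the test of shares against quality. Body measures, follicle size and immunostaining were not analysed here.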

Additional observations from a re-analysis of the deposited data

Results flagged for a closer look

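A difference between quality groups marked the share of PRKAB2 among β transcripts. Its diet difference, RES minus FF, was 6.79 percentage points in the upper group and -1.29 points in the lower group, and these differed by 8.08 points (20000 permutations of the quality label within diets, p = 0.0229, adjusted over the 3 families 0.0343). Without FF sow 10 they differed by 7.61 points (permutation p = 0.0428, adjusted 0.0642).

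The PRKAG2 share among PRKAG1 and PRKAG2 was marked in the same way. Its diet difference was 1.75 points in the upper and -2.26 points in the lower group, 4.01 points apart (permutation p = 0.00975, adjusted 0.0292), and 3.47 points apart without FF sow 10 (permutation p = 0.0247, adjusted 0.0642). For the PRKAA2 share they were 1.79 points apart (permutation p = 0.276). The edgeR test of the same difference on single genes called 0 of 11385, with 1398 at an unadjusted p under 0.05. Of the members, PRKAA1, PRKAG2 and STK11 were at unadjusted p = 0.0256, 0.0205 and 0.0347. Without FF sow 10 they were at 0.0464, 0.0326 and 0.134, with 0 genes called and 891 at an unadjusted p under 0.05, and the STK11 difference, lower minus upper, went from -0.69 to -0.40.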

How the results depend on the processing

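No member was called in any alternative fit or with any 1 sow left out (0 to 0), except 1 (PRKAA1) in the upper quality group alone. The log2 fold change turned its sign in the lower quality group for PRKAA1 (0.0882), PRKAB1 (0.0718), PRKAB2 (-0.00839), SIRT3 (0.0292) and STK11 (-0.34), and in the upper group for PRKAG2 (0.0359) and SIRT5 (0.0413). STK11 also turned with upper-quartile factors (-0.0334), filterByExpr (-0.00630), the same-numbered sows (-0.00988), without RES sows 3 and 5 (-0.00427), and in 12 of 27 fits without 1 sow (-0.0452 to 0.170, the highest without FF sow 10). In the lower group without FF sow 10, PRKAB1 (0.0524) and STK11 (-0.0507) had a sign other than in the pooled fit, and PRKAA1 (-0.0362), PRKAB2 (0.00604) and SIRT3 (-0.0117) did not. Isoform share differences turned or passed the threshold within quality groups: PRKAA2 0.79 points in the upper, PRKAB2 6.79 and -1.29 and PRKAG2 1.75 and -2.26 in the upper and lower. With 1 sow left out they were -0.62 to 0.15 points (PRKAA2), 2.28 to 3.57 (PRKAB2) and -0.61 to 0.11 (PRKAG2). Mean log2 ratios changed with length: by longest transcript SIRT1 to SIRT5 0.23, SIRT3 to PRKAA2 0.0191 and PRKAA2 to PRKAG2 -0.29, and by coding length PRKAG1 to SIRT1 -0.71, SIRT1 to SIRT5 1.87, SIRT5 to PRKAB2 -2.18 and SIRT3 to PRKAA2 -0.92. Of the 20 score relations, 1 passed in the main setting, 2 by Spearman's rho, and 0 in the upper group, in the lower group and within FF. Of the 86 pathway list genes, 5 were called (5.81%, against 14.1% of all genes), with 18 by voom (20.9% against 28.0%), 10 by DESeq2 (11.6% against 17.0%), 11 in the upper group (12.8% against 17.8%) and 0 in the lower group (against 0.00878%). The spread between sows differed for 0 members in every setting (0 to 0). The cause of these changes was not tested, beyond fewer sows in the quality groups.

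The replicate numbers do not pair the sows: over 13 shared numbers the correlation of deviations was -0.24 to 0.31, over 0.1 in 1, and 0 FF sows were closest to their own number. With the replicate block 0 members and 1084 genes were called, against 1223 for the same sows without it. Over all genes, calls ran from 1180 to 2350 with 1 sow left out, 1483 without a count filter, 3193 by voom and 1 in the lower group. STK11, with 25 to 86 counts per library, is the member most limited by depth.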

Other observations

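Within the upper quality group edgeR called genes around the members that the pooled fit did not. The pathway lists held 11 calls of 86 genes there, or 12.8%, where 17.8% of all genes were called. TXNIP, an AMPK substrate that holds back glucose uptake, fell by 1.01 on the log2 scale in RES (SE 0.24, adjusted p = 0.0146), and the transcription factors FOXO1 (-0.84, SE 0.21, adjusted p = 0.0148) and FOXO3 (-0.50, SE 0.14, adjusted p = 0.0254), targets of SIRT1, were lower as well. PFKFB3, which makes the activator of glycolytic phosphofructokinase, was higher (0.99, SE 0.30, adjusted p = 0.0313). SNRK was lower (-0.37, SE 0.09, adjusted p = 0.0141), NMRK1, an NAD salvage kinase, was lower (-0.77, SE 0.21, adjusted p = 0.0240), and AK5, an adenylate kinase, was higher (1.62, SE 0.52, adjusted p = 0.0412). All 7 were picked with their values in view, and the difference of each from the lower group had no adjusted p under 0.05 by edgeR.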
